A study of Homo sapiens with 4 samples.

Results

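Transcript levels of 8 protease inhibitor genes were described in MCF12A, an established line of human breast epithelial cells that do not form tumours. The genes were SERPINA1, SERPINA3, TFPI, TFPI2, A2ML1, CSTA, CSTB and CST6, taken from 18417 genes that a probe set named alone. They were chosen by name and selected on their values on the 4 arrays, including each exposure's difference from its own control and the difference between the controls, so these differences are given as a description, with no test. Each had 1 probe set, and no member had a probe set shared with another gene. The name secreted protease inhibitors covers SERPINA1, SERPINA3, TFPI, TFPI2, A2ML1 and CST6, whereas CSTA and CSTB are known as inhibitors that stay mainly inside the cell.

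Monolayers had been exposed for 1 week to 25 mM ethanol, with an unexposed culture called control 1, or for 1 week to 2.5 mM acetaldehyde, the first oxidation product of ethanol, with an unexposed culture of its own called control 2. The medium of all 4 cultures held horse serum, cholera toxin, bovine insulin, hydrocortisone and epidermal growth factor. RNA of each was read on 1 Affymetrix Human Gene 1.0 ST array, so no difference could be set against replicates, and precision is limited by the number of arrays. Values are normalized intensities on a linear scale, and differences are on the log2 scale, where 1 stands for 2-fold. A gene was kept for counts if its highest intensity reached 155, the median of all values that name a gene, which left 10373 genes and 7 of the 8 members. CST6 was the member below it.

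Protease inhibitors hold extracellular and lysosomal proteolysis in check. Serpins trap serine proteases by an irreversible change of shape, Kunitz inhibitors such as TFPI and TFPI2 block them by occupying the active site, proteins of the alpha-2-macroglobulin family enclose a protease after it cuts a bait region, and cystatins plug the active site of cysteine cathepsins. In stratified epithelia several of these inhibitors belong to the programme of squamous differentiation, while SERPINA1 and SERPINA3 are best known as acute phase proteins made by the liver.

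The arrays fell into experiments as well as exposures. Median intensity was 90.2 with ethanol, 92.2 in control 1, 113.0 with acetaldehyde and 114 in control 2, and the sorted log2 values lay a mean of 0.0398 apart for ethanol and control 1 and 0.0268 for acetaldehyde and control 2, but 0.270 for the controls. Differences between control 2 and control 1 therefore hold culture, experiment and normalization together, and these cannot be told apart. Of 10 listed markers of mammary epithelium 8 were measured alone by a probe set, all 8 were kept, and their summed intensity ranged from 28580.2 with acetaldehyde to 34919 with ethanol. Of these, 3 were at least 2-fold lower in control 2 than in control 1, KRT14 (-1.68), CDH1 (-1.33) and EPCAM (-1.21), and 0 at least 2-fold higher. Over all kept genes these shares were 4.85% and 4.25%. Listed markers of other cells were mostly dim. Of 8 hepatocyte markers 1 was kept, with a summed intensity of 393 with ethanol, 419.9 in control 1, 453 with acetaldehyde and 490.3 in control 2, and albumin (ALB) at no more than 23.1. Of 7 measured leukocyte markers 2 were kept, CD68 and CD14, with sums of 1968 to 2406 and the pan-leukocyte gene PTPRC at no more than 15.9. Of 6 endothelial markers 1 was kept, with sums of 384 to 499.8. Of 8 fibroblast markers 2 were kept, COL1A1 and DCN, with sums of 518 with ethanol, 603 in control 1, 947 with acetaldehyde and 977 in control 2. DCN read 34.6 with ethanol, 34.8 in control 1, 187 with acetaldehyde and 177 in control 2. In these bulk cultures, fewer cells of a type and less RNA per cell cannot be told apart.

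The promoters of TFPI2, A2ML1 and SERPINA3 are shown because these genes differed most between the unexposed cultures, TFPI2 and SERPINA3 one way and A2ML1 the other. Each sequence is the 250 bases before the transcription start, 5′ to 3′ on the gene's strand, from RefSeq (GRCh38.p14). Capitals mark the TATA box TATAAA or TGANTCA, a loose form of the AP-1 motif that takes any base at its centre. Both were searched on both strands along with TTCNNNGAA (STAT) and TGACNNNGC (the antioxidant response core). TGANTCA and TTCNNNGAA read alike on both strands.
TFPI2 (chr7:93890754-93891003, minus strand): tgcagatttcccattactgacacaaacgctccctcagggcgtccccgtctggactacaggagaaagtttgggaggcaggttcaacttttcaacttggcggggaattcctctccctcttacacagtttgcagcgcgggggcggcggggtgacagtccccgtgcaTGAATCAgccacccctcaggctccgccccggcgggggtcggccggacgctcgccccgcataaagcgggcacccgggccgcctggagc
A2ML1 (chr12:8822371-8822620, plus strand): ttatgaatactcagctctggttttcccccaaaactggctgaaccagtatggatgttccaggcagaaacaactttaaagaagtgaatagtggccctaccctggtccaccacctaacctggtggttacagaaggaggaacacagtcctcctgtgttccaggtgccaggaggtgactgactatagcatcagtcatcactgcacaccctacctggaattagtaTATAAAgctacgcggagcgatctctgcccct
SERPINA3 (chr14:94612141-94612390, plus strand): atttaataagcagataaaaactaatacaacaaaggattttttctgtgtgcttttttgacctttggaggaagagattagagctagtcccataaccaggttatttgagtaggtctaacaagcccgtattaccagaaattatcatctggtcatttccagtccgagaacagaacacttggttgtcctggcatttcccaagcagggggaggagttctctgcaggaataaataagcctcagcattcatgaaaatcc
The TFPI2 window held 20 CpG dinucleotides and 64.4% G or C, with a TGANTCA match beginning 87 bases before the start. The match reads TGAATCA, so it fits the loose form only. The A2ML1 window held 3 CpG and 49.2% G or C, with the TATA box beginning 31 bases before the start. The SERPINA3 window held 2 CpG and 40.0% G or C and none of the 4 motifs. Over 35116 windows of the same length, the median was 11 CpG and 58.0% G or C, 10.7% held TATAAA, 6.57% TGANTCA, 6.57% TTCNNNGAA and 10.9% TGACNNNGC. The table held 5 members, and the windows of TFPI and SERPINA1 had none of these motifs, nor did the A2ML1 window at its second listed start. A match is a string of letters and was not tested as a binding site.

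SERPINA1 encodes alpha-1-antitrypsin, the main inhibitor of neutrophil elastase. Its intensity was 1371 with ethanol, against 298 in control 1, and 496 with acetaldehyde, against 504 in control 2. The ethanol array thus stood above the other 3 arrays, which lay between 298 and 504. The difference was 2.20 with ethanol (4.59-fold) and -0.02 with acetaldehyde, and control 2 lay 0.76 above control 1. Against control 2 the ethanol value was still 1.44 higher. Only 4 of the 10373 kept genes had a higher ethanol difference.

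SERPINA3 encodes alpha-1-antichymotrypsin, which inhibits cathepsin G and mast cell chymase. Its intensity was 179 with ethanol, against 135 in control 1, and 687 with acetaldehyde, against 1190.0 in control 2. Both arrays of the acetaldehyde experiment lay above both arrays of the ethanol experiment. Control 2 was 8.79-fold above control 1 (log2 difference 3.14), with 6 kept genes higher still. Control 1 itself was below the filter intensity of 155. The exposure differences were 0.40 with ethanol and -0.79 with acetaldehyde (1.73-fold lower), and 39 kept genes were lower than that with acetaldehyde. Both directions turned with the other control, to -2.73 for ethanol against control 2 and 2.34 for acetaldehyde against control 1. SERPINA3 and SERPINA1 lie in the same clade A serpin cluster of chromosome 14. Of the other genes of that cluster, 9 were measured alone by a probe set, none was kept, and their intensities ran from 28.4 to 127 over the 4 arrays.

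TFPI is the Kunitz inhibitor of factor Xa and of the tissue factor and factor VIIa complex. Its intensity was 703 with ethanol, against 287 in control 1, and 225 with acetaldehyde, against 199 in control 2. As for SERPINA1, the ethanol array was the highest of the 4, and the other 3 lay together. The ethanol difference was 1.29 (2.45-fold), with 41 kept genes higher still, and the acetaldehyde difference was 0.18. Control 2 lay 0.53 below control 1 on the log2 scale, and against control 2 the ethanol value was 1.82 higher.

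TFPI2 encodes a Kunitz inhibitor of the extracellular matrix that acts on plasmin and trypsin. Its intensity was 1193 with ethanol, against 204 in control 1, and 4033 with acetaldehyde, against 2399 in control 2. Control 1 was the lowest array by a wide margin, and the exposed array was the higher of each pair. The ethanol difference was 2.55 (5.85-fold), with 0 of the 10373 kept genes higher. The acetaldehyde difference was 0.75 (1.68-fold), with 29 kept genes higher. Control 2 was 11.8-fold above control 1 (3.56), which is more than either exposure difference, and 5 kept genes had a higher one. The ethanol value therefore lay between the controls, with a difference of -1.01 against control 2, and only the acetaldehyde value lay above both.

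**Figure D1:**
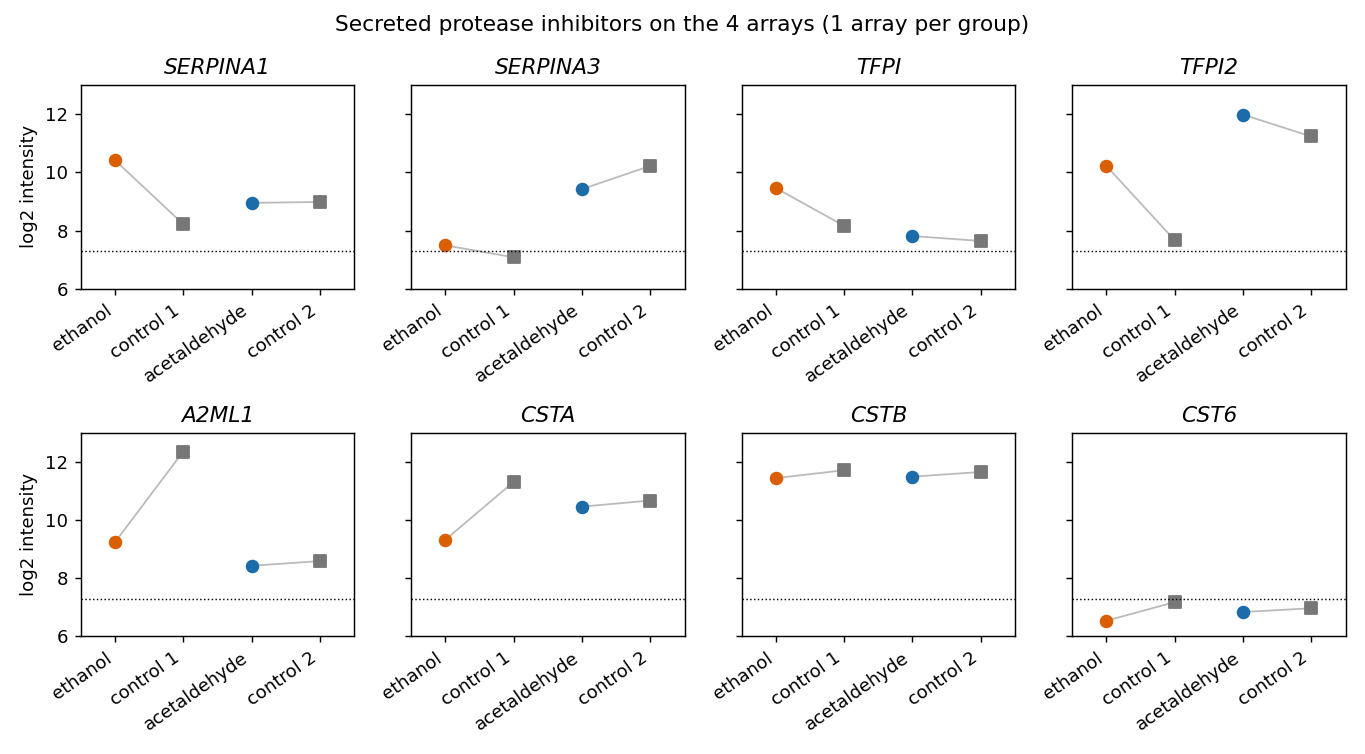
Log2 intensity of the 8 protease inhibitor genes (vertical axis) on the ethanol, control 1, acetaldehyde and control 2 arrays (horizontal axis, 1 point per array). Circles are exposed cultures, squares are controls, grey lines join each exposed array to its own control, and the dotted line is the filter at log2 7.28. SERPINA1 and TFPI are highest with ethanol, SERPINA3 and TFPI2 are higher in both arrays of the acetaldehyde experiment, A2ML1 stands out in control 1, and CSTB is nearly level.

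A2ML1 encodes a broad protease inhibitor of the alpha-2-macroglobulin family that is made in the upper layers of stratified epithelium. Its intensity was 602 with ethanol, against 5224 in control 1, and 344 with acetaldehyde, against 386 in control 2. Control 1 was thus the exception and the other 3 arrays lay within 344 to 602. The ethanol difference was -3.12 (8.68-fold lower), with 28 kept genes lower still, and the acetaldehyde difference was -0.17. Control 2 was 13.5-fold below control 1 (-3.76), so the ethanol value lay between the controls and was 0.64 above control 2.

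CSTA encodes cystatin A, an inhibitor of cathepsins B, H and L that is also built into the cornified envelope. Its intensity was 637 with ethanol, against 2547 in control 1, and 1409.9 with acetaldehyde, against 1634 in control 2. The ethanol array was the lowest of the 4, and both exposed arrays were below both controls. The ethanol difference was -2.00 (4.00-fold lower) and the acetaldehyde difference was -0.21 (1.16-fold lower). Control 2 lay 0.64 below control 1 on the log2 scale, and against control 2 the ethanol difference was -1.36.

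CSTB encodes cystatin B, the close relative of cystatin A found in most cell types. Its intensity was 2773 with ethanol, against 3346 in control 1, and 2868 with acetaldehyde, against 3208 in control 2. Both exposed arrays were a little below both controls, by -0.27 with ethanol and -0.16 with acetaldehyde, and the highest array was 1.21-fold above the lowest. CSTB had the narrowest range of the 8 genes over the 4 arrays. CST6 encodes cystatin M/E, a secreted inhibitor of legumain and of cathepsins L and V in skin. Its intensity was 92.8 with ethanol, against 145 in control 1, and 114 with acetaldehyde, against 126 in control 2. Both exposed values were again below both controls (-0.64 and -0.14), but every CST6 value lay below the filter intensity, where sizes are least certain.

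Counted over the 7 kept members, 3 were at least 2-fold higher with ethanol (SERPINA1, TFPI, TFPI2), against a background of 1.17% of kept genes, and 2 at least 2-fold lower (A2ML1, CSTA), against 2.11%. With acetaldehyde 0 were at least 2-fold higher and 0 at least 2-fold lower, where the background was 0.0289% and 0.212%. Between the controls 2 were at least 2-fold higher in control 2 (SERPINA3, TFPI2), against 4.25%, and 1 at least 2-fold lower (A2ML1), against 4.85%. At a 1.5-fold threshold, 3 kept members were higher (background 5.44%) and 2 lower (4.22%) with ethanol, 1 higher (TFPI2, 0.742%) and 1 lower (SERPINA3, 0.974%) with acetaldehyde, and 3 higher (14.9%) and 2 lower (12.9%) in control 2 than in control 1. Because these contrasts were in view when the genes were chosen, nothing is read from these shares. The ethanol value lay above both controls for 2 kept members (SERPINA1, TFPI; background 35.2%) and below both for 2 (CSTA, CSTB; background 28.1%). The acetaldehyde value lay above both controls for 1 (TFPI2; background 30.1%) and below both for 3 (A2ML1, CSTA, CSTB; background 24.9%). The median difference over the kept members was 0.40 with ethanol, -0.16 with acetaldehyde and -0.06 between the controls, against 0.05, 0.00 and 0.06 over all kept genes. The ethanol and control differences both subtract control 1, so they are set side by side without a comparison.

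**Figure D2:**
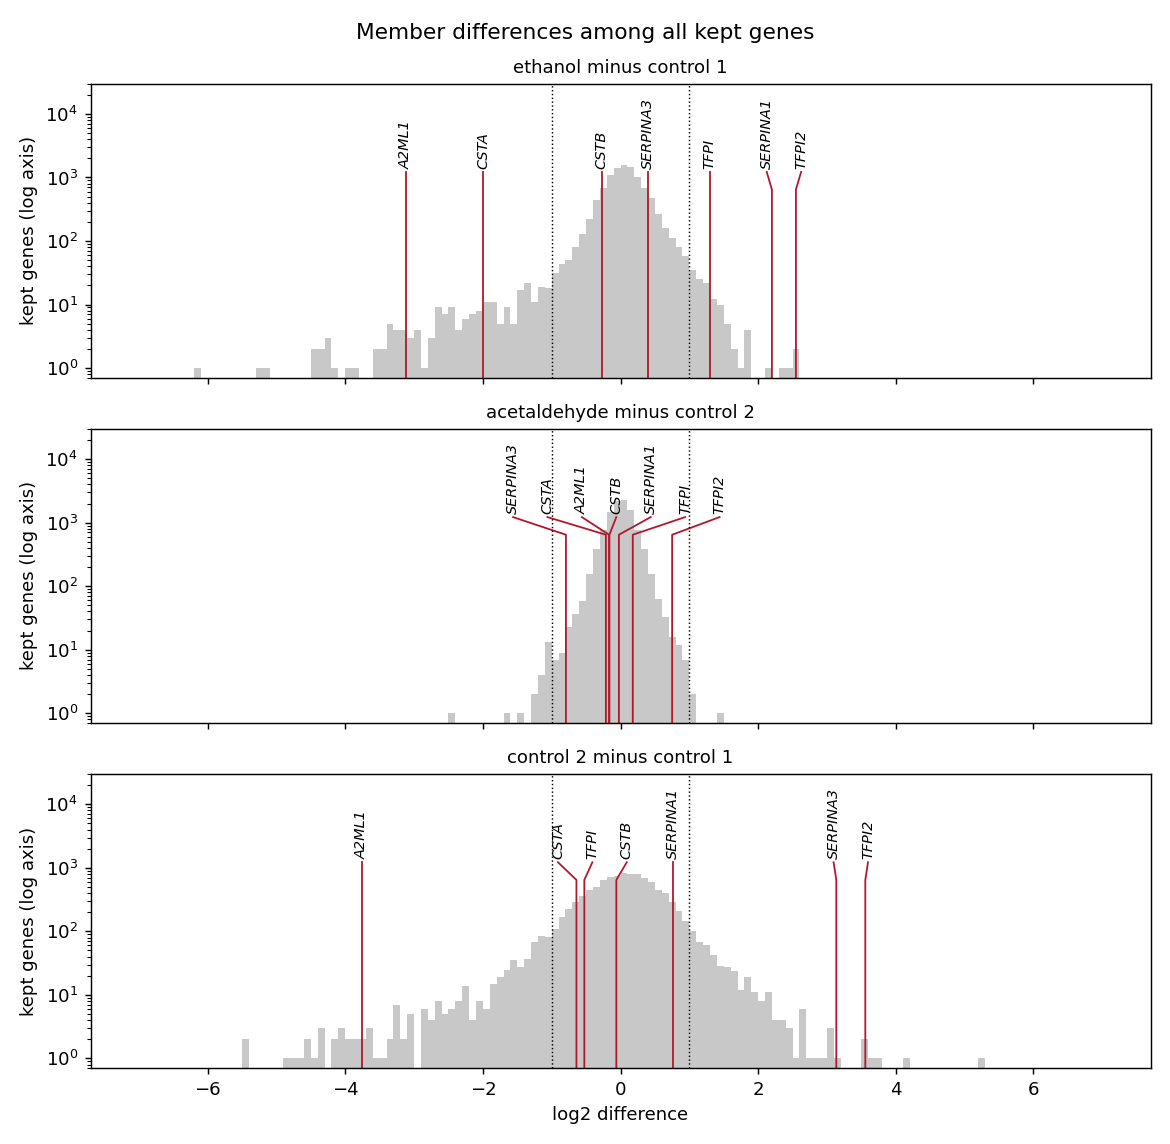
Number of kept genes (vertical log axis) by log2 difference (horizontal axis) for ethanol minus control 1, acetaldehyde minus control 2 and control 2 minus control 1, from top to bottom. Red lines mark the 7 kept members and dotted lines 2-fold. TFPI2 is at the upper edge of the ethanol panel at 2.55, A2ML1 is far to the left of the ethanol (-3.12) and control (-3.76) panels, and all members lie inside the dotted lines with acetaldehyde.

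The kept genes nearest to each member were found by distance over its 3 log2 differences, from 4 arrays, for members at least 2-fold apart in 1 or more of them. For SERPINA1 these were the pattern receptor gene TLR2 (distance 0.52), the adhesion molecule gene MCAM (0.64) and KLHL5 (0.71). For SERPINA3 they were the coactivator gene PPARGC1A (0.53), the selenium transport protein gene SELENOP (0.61) and S100A7A (0.64). For TFPI they were EVI2A (0.19), the metalloprotease gene ADAM12 (0.20) and PLPP4 (0.23). TFPI2 had no close match, the nearest being fibronectin FN1 (1.25), tissue transglutaminase TGM2 (1.25) and the pyruvate dehydrogenase kinase gene PDK4 (1.62). For A2ML1 they were the proton pump gene ATP12A (0.46), the epidermal lipase gene LIPK (0.51) and IGFL1 (0.59). For CSTA they were the envelope protein gene SPRR2F (0.36), CYP4B1 (0.38) and the carboxypeptidase gene CPM (0.40). SPRR2F belongs to a family of near-identical copies, so its value is uncertain.

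The proteases that cystatins inhibit were listed as 12 genes, the cysteine cathepsins and legumain, of which 9 were kept. With ethanol 0 were at least 2-fold higher and 1 at least 2-fold lower, with acetaldehyde 0 and 0, and in control 2 against control 1 0 and 1. Over all kept genes these shares were 1.17% and 2.11%, 0.0289% and 0.212%, and 4.25% and 4.85%. The lists were chosen with earlier results of these data known, so nothing is read from their counts. The gene lower with ethanol and in control 2 was CTSV, a cathepsin of skin and thymus. It read 316 with ethanol, against 704 in control 1, and 106 with acetaldehyde, against 111 in control 2. The lysosomal cathepsin genes CTSZ, CTSB and CTSL differed by 0.69, 0.67 and 0.49 with ethanol and by 0.02, 0.02 and 0.21 with acetaldehyde. Legumain (LGMN), the target of CST6, differed by 0.00 with ethanol and -0.06 with acetaldehyde. The list median was 0.10 with ethanol, -0.06 with acetaldehyde and 0.11 between the controls.

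For the system that TFPI and TFPI2 act on, 17 of 18 listed genes of tissue factor and plasmin generation were measured alone by a probe set and 8 were kept. None of the 8 was 2-fold apart with either exposure, while 3 were at least 2-fold lower in control 2 than in control 1. Over all kept genes 4.85% were lower in that way. With ethanol 1.17% of all kept genes were at least 2-fold higher and 2.11% lower, and with acetaldehyde 0.0289% and 0.212%. Tissue factor F3, the starter of clotting, read 313 with ethanol, against 616 in control 1 (-0.98), and 196 with acetaldehyde, against 141 in control 2 (0.47). The urokinase receptor PLAUR was at 1844 with ethanol, against 935 in control 1 (0.98), and at 418 with acetaldehyde, against 326 in control 2 (0.36). Urokinase PLAU differed by 0.77 with ethanol and 0.41 with acetaldehyde, and the protein C cofactor gene PROS1 by 0.59 and 0.28. F3, PLAU and PLAUR were the genes lower in control 2, by -2.13, -1.25 and -1.52. The list median was 0.49 with ethanol and 0.30 with acetaldehyde.

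Of 18 listed serine proteases of leukocytes and epithelium 15 were measured alone by a probe set and 8 were kept. With ethanol 2 were at least 2-fold lower, the airway-type protease gene TMPRSS11E (-2.06) and the channel-activating protease gene PRSS8 (-1.35), and 0 at least 2-fold higher. Over all kept genes these shares were 2.11% and 1.17%. TMPRSS11E passed the filter through control 1 alone (363), and it read 86.9 with ethanol, 52.8 with acetaldehyde and 57 in control 2, where sizes are less certain. Matriptase ST14 differed by -0.94 with ethanol and -0.58 with acetaldehyde, and PRSS27 by -0.92 and -0.01. In control 2 against control 1, 3 were at least 2-fold lower, TMPRSS11E (-2.67), ST14 (-1.89) and PRSS8 (-1.26), against 4.85% of all kept genes. The neutrophil elastase gene ELANE, the target of SERPINA1, was at 183 with ethanol, against 214 in control 1, and at 248 with acetaldehyde, against 275 in control 2. The list median was -0.92 with ethanol, -0.15 with acetaldehyde and -0.63 between the controls.

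Of 48 other listed protease inhibitors 47 were measured alone by a probe set and 12 were kept. With ethanol 0 were at least 2-fold higher and 3 at least 2-fold lower, the elastase inhibitors PI3 (-3.27) and SLPI (-1.14) and the related WFDC12 (-1.44). With acetaldehyde 0 were at least 2-fold higher and 1 at least 2-fold lower, PI3 (-1.11). Over all kept genes these shares were 1.17% and 2.11% with ethanol and 0.0289% and 0.212% with acetaldehyde. WFDC12 passed the filter through control 1 alone (189.6), and it read 70.1 with ethanol, where sizes are less certain. PI3 was at 563 with ethanol, against 5416 in control 1, and at 1911 with acetaldehyde, against 4120.1 in control 2, so its exposed values lay below both controls. The thrombin and urokinase inhibitor SERPINE2 differed by 0.78 with ethanol and 0.13 with acetaldehyde and by -1.19 between the controls. The list median was -0.30 with ethanol, -0.12 with acetaldehyde and -0.43 between the controls.

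**Figure D3:**
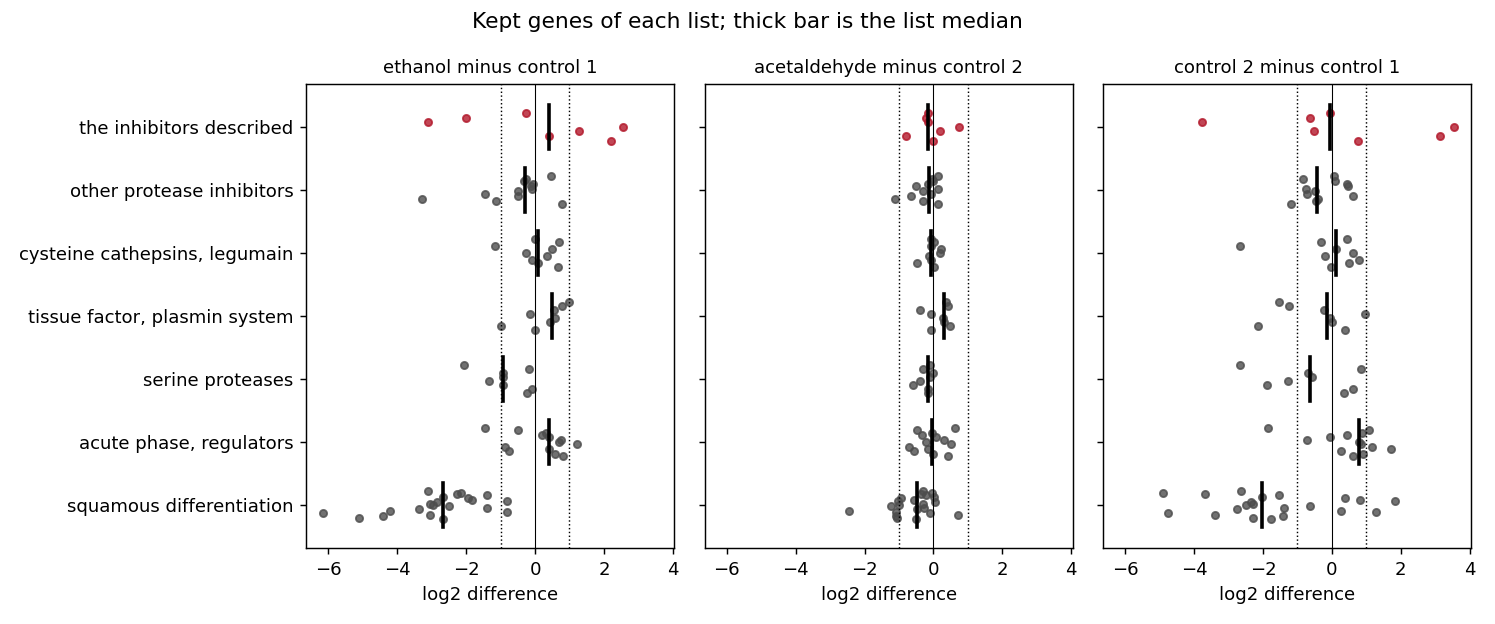
Log2 difference (horizontal axes) of the kept genes of the described inhibitors (red) and of 6 related lists (grey, 1 point per gene) for ethanol minus control 1, acetaldehyde minus control 2 and control 2 minus control 1, from left to right. Thick bars are list medians and dotted lines mark 2-fold. The described inhibitors spread to both sides with ethanol and between the controls, whereas squamous differentiation genes have medians of -2.68 and -2.03 there.

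SERPINA1 and SERPINA3 were set beside a list of acute phase genes and their regulators, with 26 of 27 genes measured alone by a probe set and 13 kept. With ethanol 1 was at least 2-fold higher, the interleukin gene IL6 (1.23), and 1 at least 2-fold lower, IL1B (-1.46). With acetaldehyde none was 2-fold apart. Over all kept genes 1.17% were at least 2-fold higher and 2.11% lower with ethanol, and 0.0289% and 0.212% with acetaldehyde. The complement gene CFB differed by -0.86 with ethanol and -0.70 with acetaldehyde. The serum amyloid gene SAA1 differed by 0.81 and 0.41, and it shares near-identical sequence with SAA2, so its value is uncertain. In control 2 against control 1, 3 were at least 2-fold higher, the complement genes C3 (1.73) and CFB (1.18) and the transcription factor gene CEBPD (1.07), and 1 at least 2-fold lower, IL1B (-1.86). Over all kept genes these shares were 4.25% and 4.85%. IL6 read 157 with ethanol, against 66.6 in control 1, and 170.0 with acetaldehyde, against 119 in control 2. It passed the filter narrowly and through the exposed arrays alone, which fixes an exposed array as its highest. Both of its control values lay below the filter intensity, where sizes are less certain. The list median was 0.40 with ethanol, -0.03 with acetaldehyde and 0.80 between the controls.

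A2ML1, CSTA and CST6 were set beside 23 genes of squamous differentiation, of which 21 were kept. With ethanol 19 of the 21 were at least 2-fold lower and 0 at least 2-fold higher, with acetaldehyde 6 and 0, and in control 2 against control 1 15 were lower and 2 higher. Over all kept genes these shares were 2.11% and 1.17%, 0.212% and 0.0289%, and 4.85% and 4.25%. The largest ethanol differences were those of the envelope genes SPRR3 (-6.16), SPRR1A (-5.11) and SPRR1B (-4.40) and of the keratin gene KRT10 (-4.20). With ethanol SPRR3 read 61.8 and KRT10 70.5, both below the filter intensity, where sizes are less certain. With acetaldehyde SPRR3 differed by -0.09, A2ML1 by -0.17 and KRT10 by -2.44. SPRR3 read 152 with acetaldehyde and 162 in control 2, close to the filter intensity, so its small difference is less certain. A2ML1 read 344 with acetaldehyde and 386 in control 2, well above that intensity. Between the controls SPRR3 differed by -4.77 and A2ML1 by -3.76, while KRT10 (0.28) and CSTA (-0.64) went opposite ways. The list medians were -2.68 with ethanol and -2.03 in control 2 against control 1, and A2ML1 and CSTA were also lower in both. Both differences subtract control 1, so being lower in both is not 2 separate results. FLG, SPRR2A and DSG1 reached the filter intensity in control 1 alone, which fixes control 1 as their highest array. KRT1 reached it in control 2 alone (213), which likewise fixes control 2 as its highest array. It is among the 2 counted as higher in control 2 (1.29). The part of this list in the values of A2ML1 and CSTA was not tested.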

How the data were processed

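Titles and exposure labels gave each sample's group and each exposure's control. The authors deposited 1 linear intensity per probe set and array, made with RMA per the submitters' processing notes, its program and release being not given in the sources used here. Although the design called for log2 values, the deposited intensity was linear, so log2 was taken, with no offset. Of 33297 probe sets, the platform annotation named 1 gene for 19460, several for 1754, and left 12083 unnamed (0 columns of other samples were present). Gene IDs matched the RefSeq table of GRCh38.p14 for 19429 and changed 0 symbols. For the 769 genes with several probe sets the highest mean was used. With 1 array per group no test was run. The members, the lists and the rules for named genes (all members, the 3 nearest genes of each member at least 2-fold apart, up to 4 genes per list) were chosen with earlier results of these data known. The promoter motifs and the genes named beyond these rules (LGMN, ELANE, C3, CEBPD, ALB, PTPRC, CDH1, FLG, SPRR2A, DSG1 and KRT1) were chosen after values were seen. Alternatives changed the offset, normalization, probe set rule, filter, threshold and control. The steps were run on simulated arrays with large changes, little noise and no gap between experiments, so this checked the arithmetic only. Python 3.11.15, numpy 2.4.6, pandas 2.3.3 and matplotlib 3.10.9 were used.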

Additional observations from a re-analysis of the deposited data

Results flagged for a closer look

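For 2 of the 8 genes the exposures lay on opposite sides of their controls. SERPINA1 differed by 2.20 with ethanol and by -0.02 with acetaldehyde, the second being close to no difference. Against control 1 its acetaldehyde difference was 0.73. SERPINA3 differed by 0.40 with ethanol and by -0.79 with acetaldehyde. Its ethanol difference was -2.73 against control 2 and -1.16 against the mean of both controls, and its acetaldehyde difference was 2.34 against control 1 and 0.77 against that mean, so neither direction held. Each of the matched values comes from 1 array against 1, the exposures differ in agent and dose, and the difference between them was not tested.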

How the results depend on the processing

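An offset of 16 before log2, quantile normalization of all 4 arrays and centring each array on its median kept the direction of all 8 genes in all 3 differences. The side of 2-fold was also kept, and no gene's value moved by more than 0.25 (log2). Averaging probe sets and dropping the filter could not move a member's value, so they are no check on it. Each member had 1 probe set, and the filter only selects genes for counts and medians. The median ethanol difference of 0.40 over kept members came to 0.01 under quantile normalization and 0.07 without the filter, with CST6 included in both. Under quantile normalization CST6 passed the filter, so 3 members lay below both controls with ethanol and 4 with acetaldehyde. The choice of control mattered most. Against control 2, the ethanol difference changed sign for SERPINA3 (-2.73), TFPI2 (-1.01) and A2ML1 (0.64), counts went to 2 higher and 3 lower, and the median over kept members moved to -0.21, or to -0.24 against the mean of both controls, where SERPINA3 was at -1.16 and counts were also 2 and 3. Against control 1, the acetaldehyde difference changed sign for SERPINA1 (0.73), SERPINA3 (2.34) and TFPI (-0.35). Acetaldehyde had 2 members at least 2-fold higher and 1 lower against control 1, and 1 higher and 1 lower against the mean of both controls. At a 1.5-fold threshold there were 1 higher and 1 lower with acetaldehyde and 2 lower in control 2 than in control 1. These follow from the distance between the controls and from the lower threshold. No paired analysis was possible because each group has 1 array, so that a fit with the pair as a block has no second pair of the same exposure. Signal near the filter intensity limits CST6 on all arrays and SERPINA3 in the ethanol experiment.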
